A study of Mus musculus with 9 samples.

Results

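The genes described are 10 secreted factors that epithelial cells can release to recruit and feed leukocytes, taken by name from the deposited gene table after its Ensembl identifiers were matched to symbols. They are the chemokines Cxcl1, Cxcl2, Cxcl5, Ccl2, Ccl7 and Ccl20, the colony-stimulating factors Csf1, Csf2 and Csf3, and the cytokine Lif. All 10 were found among the 51912 genes of the table, and 9 had enough counts to be tested; Csf2 did not. The members were listed by name, not by a threshold on a difference, but with earlier results of these data known. Counts of members set against all genes are therefore a description.

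RNA sequencing was done on 9 samples of organoids, small clusters of epithelium isolated from mouse mammary tumours. All mice were FVB/NJ and carried the MMTV::PyMT transgene, in which a promoter active in mammary epithelium drives a viral oncogene, together with (R26)pCA::mT/mG, a reporter that changes colour where Cre recombinase has acted. The 4 WT samples were Cdh1+/+ and the 5 E-cad-KO samples were Cdh1fl/fl, with floxed alleles of the E-cadherin gene that Cre can delete. Both groups, the WT controls included, were exposed overnight to adeno-Cre and then cultured for 48 h in 3D collagen I gels with b-FGF2. Cre came from a virus rather than from a transgene, and RNA came from whole frozen gels, so uninfected cells and any cells carried along with the epithelium are part of each library. The design text calls the samples biological replicates, but the labels name neither animals nor ages, so the p-values speak only of the spread from sample to sample, which may be technical. Cdh1 stood at 150 to 246 CPM (counts scaled to a common library size) in WT and at 79.0 to 118 CPM in E-cad-KO, with no overlap.

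CXC chemokines of the Cxcl1, Cxcl2 and Cxcl5 type act on the receptor Cxcr2 and draw neutrophils. Ccl2 and Ccl7 act on Ccr2 and draw monocytes, and Ccl20 acts on Ccr6, found on dendritic cells and lymphocytes. Csf1 keeps macrophages alive, Csf3 drives the production of neutrophils, Csf2 acts on both lineages, and Lif signals through Lifr and Il6st to STAT3. Many of these genes are known targets of NF-kB, a family of transcription factors activated by inflammatory signals.

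Because the genes are known as NF-kB targets, the 250 bases before the annotated start of each were read from the RefSeq promoter table (GRCm38.p6) and searched on both strands for the NF-kB consensus. Of the 10 genes, 6 had an entry (Cxcl1, Cxcl2, Ccl20, Csf1, Csf2 and Lif). The consensus was found in 5 of these 6, and in 7.25% of all 32851 promoters of the same length. The 5 promoters with a match are printed 5′ to 3′ on the gene's own strand, with the bases of the match in capitals and the rest in lower case. They lie at chr5:90890995-90891244 (plus strand) for Cxcl1, chr5:90903649-90903898 (plus) for Cxcl2, chr1:83116516-83116765 (plus) for Ccl20, chr3:107760470-107760719 (minus) for Csf1 and chr11:4257318-4257567 (plus) for Lif.
Cxcl1: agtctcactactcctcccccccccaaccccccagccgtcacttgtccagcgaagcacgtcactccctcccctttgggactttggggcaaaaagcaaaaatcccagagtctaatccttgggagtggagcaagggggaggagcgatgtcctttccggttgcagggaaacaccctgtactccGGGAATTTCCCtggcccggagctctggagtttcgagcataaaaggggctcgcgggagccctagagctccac
Cxcl2: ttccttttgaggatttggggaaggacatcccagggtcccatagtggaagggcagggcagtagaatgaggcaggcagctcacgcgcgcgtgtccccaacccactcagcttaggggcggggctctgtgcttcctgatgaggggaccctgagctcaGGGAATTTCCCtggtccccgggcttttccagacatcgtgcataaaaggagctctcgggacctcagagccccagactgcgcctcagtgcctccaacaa
Ccl20: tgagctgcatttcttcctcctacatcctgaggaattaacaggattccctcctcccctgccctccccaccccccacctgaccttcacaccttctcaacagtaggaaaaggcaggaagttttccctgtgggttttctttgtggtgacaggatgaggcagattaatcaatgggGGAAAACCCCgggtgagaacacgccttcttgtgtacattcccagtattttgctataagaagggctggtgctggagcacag
Csf1: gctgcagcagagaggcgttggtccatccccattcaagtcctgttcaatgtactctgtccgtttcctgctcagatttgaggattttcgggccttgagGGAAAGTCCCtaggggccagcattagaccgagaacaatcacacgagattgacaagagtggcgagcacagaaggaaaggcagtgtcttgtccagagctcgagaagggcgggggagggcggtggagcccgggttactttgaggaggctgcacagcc
Lif: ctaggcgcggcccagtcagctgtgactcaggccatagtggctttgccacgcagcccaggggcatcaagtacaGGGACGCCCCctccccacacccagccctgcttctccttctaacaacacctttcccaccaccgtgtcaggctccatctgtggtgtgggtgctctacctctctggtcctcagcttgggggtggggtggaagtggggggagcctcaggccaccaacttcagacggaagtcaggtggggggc

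Cxcl1 and Cxcl2, which neighbour each other on chromosome 5, held the same 11 capital letters, from 71 to 61 bases before the start in Cxcl1 and from 97 to 87 in Cxcl2. This run matched the consensus on both strands. The Ccl20 match lay on the opposite strand, 80 to 71 bases before the start, and so did the Csf1 match, 154 to 145 bases before it. The Lif match lay 178 to 169 bases before the start. TGANTCA, the motif of AP-1 factors, was found in the Lif promoter alone among the 6, 228 to 222 bases before the start, and in 6.75% of all promoters. TATAAA was found in 0 of the 6 and in 12.4% of all. These are matches of letters and were not tested as binding sites.

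Library totals ran from 44890302 to 64763645 counts. Each pair of libraries differed by more than sampling noise (smallest chi-square per degree of freedom 13.7). The tissue label was checked against marker lists. Markers of mammary epithelium summed to 5815 to 16124 CPM in WT and to 8139 to 12822 CPM in E-cad-KO. Macrophage markers summed to 411 to 593 CPM in WT and to 384 to 446 CPM in E-cad-KO. The highest of these was WT 4, which also had the highest macrophage and fibroblast marker scores and the lowest epithelial score of the 9 libraries, while WT 1 had the lowest macrophage and fibroblast scores. Fibroblast markers summed to 66.7 to 371 CPM in WT and to 135 to 228 CPM in E-cad-KO, endothelial markers to 5.40 to 12.9 and to 3.77 to 6.98 CPM, and T and B cell markers to 3.55 to 6.40 and to 2.39 to 5.02 CPM, with Cd3e at 0 counts in every library. In such bulk samples, fewer cells of a type and less RNA per cell cannot be told apart.

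Levels of different genes were compared per length, as the mean over all 9 libraries of CPM per kilobase of the longest annotated transcript. The order was Cxcl5 at 54.2, Cxcl1 at 48.2, Ccl2 at 29.6, Lif at 18.9, Csf1 at 9.39, Csf3 at 9.08, Ccl7 at 7.80, Ccl20 at 4.22, Cxcl2 at 2.60 and Csf2 at 0.127 CPM per kilobase. The ranges of neighbours in this order overlapped over libraries, apart from that of Csf2, which lay wholly below that of Cxcl2. Within each library Cxcl1 also lay above Ccl2, most narrowly in WT 4 (34.3 and 32.6 CPM per kilobase). The widest spread was that of Cxcl5, whose highest library was 17.2 times its lowest, and the narrowest that of Ccl2, at 1.67 times.

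The comparison of E-cad-KO with WT asks whether these signals differ once E-cadherin, the main adhesion molecule between epithelial cells, can be deleted. Cxcl1, Ccl20 and Lif had the members' smallest p-values, with means 1.32, 1.79 and 1.36 times those of WT. By the quasi-likelihood test of edgeR with Benjamini-Hochberg adjustment over all 17289 genes tested, 0 of the 9 members were called at an adjusted p under 0.05, a threshold that 1.41% of all genes passed. At an unadjusted p under 0.05 there were 3 of 9 members, against 16.7% of all genes. The groups did not overlap in CPM for 2 of 9 members, Cxcl1 and Ccl20, against 8.11% of all genes. Of the 9 log2 differences 6 were positive and 3 negative, with a median of 0.40, while 48.0% of all tested genes were positive and their median was -0.01.

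**Figure D1:**
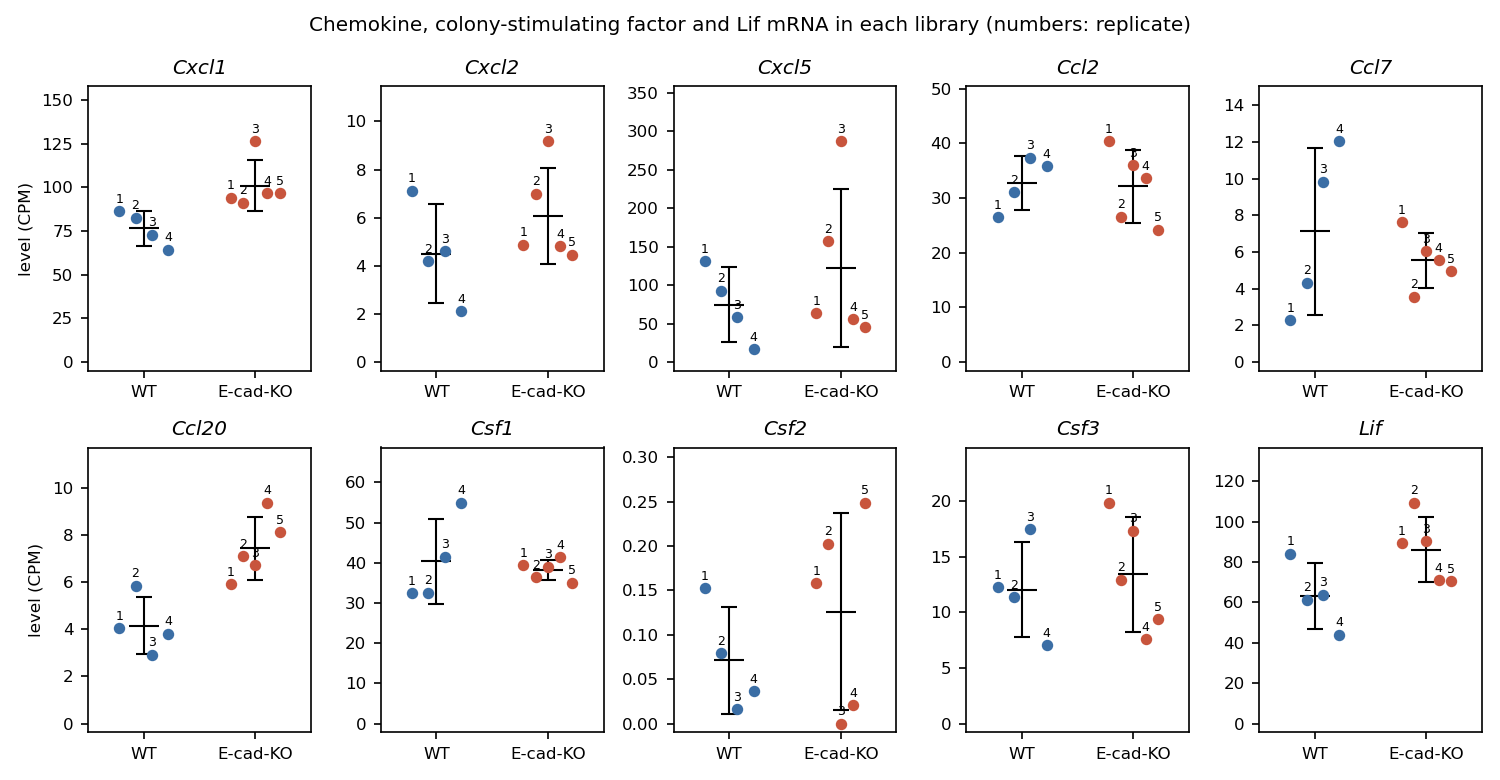
Expression of the 10 genes in each library, as CPM on a separate linear axis per gene, with each library as a point numbered by replicate and the group mean ± SD as a black bar. Cxcl1 (64.3 to 86.5 CPM in WT, 91.3 to 126 in E-cad-KO) and Ccl20 (2.92 to 5.85 and 5.90 to 9.36) are the genes whose groups do not overlap.

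Cxcl1 (ENSMUSG00000029380, chr5:90891241-90893115, plus strand, GRCm38), a neutrophil attractant, measured 86.5, 82.6, 73.0 and 64.3 CPM in WT 1 to 4 and 94.1, 91.3, 126, 96.6 and 96.7 CPM in E-cad-KO 1 to 5. Every E-cad-KO library lay above every WT library, and E-cad-KO 3 stood above the other 4. The means were 76.6 ± 9.97 (SD, n = 4) and 101 ± 14.4 CPM (SD, n = 5), a log2 difference of 0.40 (SE 0.11, 95% interval 0.15 to 0.65) with an edgeR adjusted p of 0.113.

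Cxcl2, a close relative of Cxcl1 with the same receptor, measured 7.12, 4.19, 4.61 and 2.12 CPM in WT and 4.88, 7.0, 9.18, 4.81 and 4.46 CPM in E-cad-KO. The groups overlapped widely, with WT 1 second only to E-cad-KO 3 and WT 4 lowest. The log2 difference was 0.43 (SE 0.33, interval -0.32 to 1.17; edgeR adjusted p = 0.577). Of the 50-base windows of the Cxcl2 transcript, 5.35% also occur in Cxcl3, so some reads could be shared between them.

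Cxcl5, which epithelial cells make in inflamed mucosa, measured 131, 92.8, 58.5 and 16.6 CPM in WT and 63.5, 157, 287, 56.0 and 45.1 CPM in E-cad-KO. WT 4 was lowest and E-cad-KO 3 highest of the 9 libraries, the groups overlapped, and 3 of the 5 E-cad-KO libraries lay below the WT mean of 74.8 ± 48.9 CPM (SD, n = 4). The log2 difference of 0.70 (SE 0.71, interval -0.90 to 2.31; edgeR adjusted p = 0.683) was 0.10 without E-cad-KO 3 and 1.12 without WT 1.

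Ccl20 (ENSMUSG00000026166, chr1:83116766-83119167, plus strand, GRCm38), the ligand of Ccr6, measured 4.04, 5.85, 2.92 and 3.82 CPM in WT and 5.90, 7.10, 6.71, 9.36 and 8.11 CPM in E-cad-KO. The groups did not overlap, although WT 2 and E-cad-KO 1 nearly touched. The means were 4.16 ± 1.23 (SD, n = 4) and 7.44 ± 1.34 CPM (SD, n = 5), a log2 difference of 0.84 (SE 0.21, interval 0.38 to 1.30) with an edgeR adjusted p of 0.0769.

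Ccl2, the main monocyte attractant of the set, measured 26.5, 31.0, 37.4 and 35.8 CPM in WT and 40.4, 26.6, 36.0, 33.6 and 24.2 CPM in E-cad-KO. Both groups covered nearly the same range. The log2 difference was -0.02 (SE 0.16; edgeR adjusted p = 0.964), and its interval of -0.38 to 0.33 leaves room for changes of that size either way.

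Ccl7, the neighbour of Ccl2 on chromosome 11 with a shared receptor, measured 2.28, 4.33, 9.84 and 12.05 CPM in WT and 7.62, 3.57, 6.06, 5.57 and 4.94 CPM in E-cad-KO. The WT libraries included both the lowest and the highest values, so that the E-cad-KO range lay within that of WT. The log2 difference was -0.36 (SE 0.43, interval -1.33 to 0.62; edgeR adjusted p = 0.743), and it was 0.02 without WT 4.

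Csf1, the growth factor of macrophages, measured 32.5, 32.6, 41.5 and 54.9 CPM in WT and 39.4, 36.4, 39.0, 41.4 and 35.0 CPM in E-cad-KO. WT 4 was highest, and the 5 E-cad-KO libraries lay close together inside the WT range. The log2 difference was -0.08 (SE 0.15, interval -0.40 to 0.25; edgeR adjusted p = 0.851), and it was 0.11 without WT 4.

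Csf3, the growth factor of neutrophils, measured 12.3, 11.4, 17.5 and 7.05 CPM in WT and 19.9, 12.9, 17.4, 7.62 and 9.37 CPM in E-cad-KO. Low and high libraries occurred in both groups. The log2 difference was 0.15 (SE 0.32, interval -0.57 to 0.88; edgeR adjusted p = 0.869), and it was -0.03 without WT 4.

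Csf2 was close to the limit of detection, with 9, 5, 1 and 2 counts in WT 1 to 4 and 9, 12, 0, 1 and 16 counts in E-cad-KO 1 to 5. Both groups held libraries with hardly any reads, and the 0 of E-cad-KO 3 allows up to 3 counts, or 0.0678 CPM, by counting error alone. It was filtered out before the test. Its exons overlap those of Gm12223 on the other strand over 96 bases, and whether reads were counted by strand is not given in the sources used here.

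Lif (ENSMUSG00000034394, chr11:4257557-4272514, plus strand, GRCm38), a cytokine of the interleukin-6 family, measured 84.1, 61.4, 63.9 and 44.1 CPM in WT and 89.3, 109, 90.5, 71.1 and 70.5 CPM in E-cad-KO. WT 1 alone lay within the E-cad-KO range. The means were 63.4 ± 16.4 (SD, n = 4) and 86.2 ± 16.1 CPM (SD, n = 5), a log2 difference of 0.44 (SE 0.19, interval 0.02 to 0.87) with an edgeR adjusted p of 0.273.

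**Figure D2:**
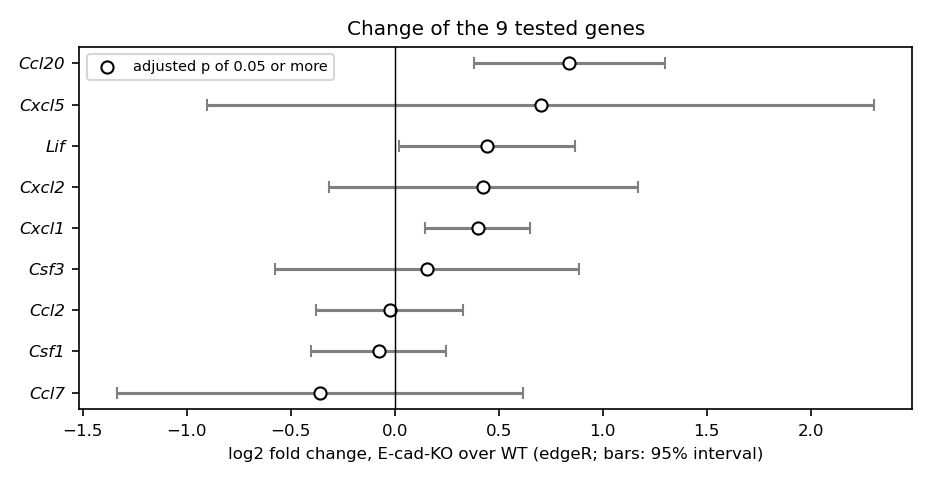
Log2 difference of E-cad-KO from WT for each tested gene by edgeR, with bars for the 95% interval and the line at 0 for no difference. The intervals of Cxcl1 (0.15 to 0.65), Ccl20 (0.38 to 1.30) and Lif (0.02 to 0.87) lie above 0 before adjustment, and that of Cxcl5 (-0.90 to 2.31) is the widest.

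Whether Cxcl1, Ccl20 and Lif passed depended on the test. DESeq2 called 2 of the 9, Cxcl1 with an adjusted p of 0.0249 and Ccl20 with 0.00206, against 7.75% of the 14561 genes it adjusted over. limma-voom with quality weights called 0 of 9 against 2.96% of all genes. Its adjusted p was 0.0786 for Cxcl1, 0.0590 for Ccl20 and 0.165 for Lif. With the macrophage marker score as a covariate edgeR called 3 of 9 against 7.24% of all genes: Cxcl1 at 0.40, Ccl20 at 0.84 and Lif at 0.44 on the log2 scale, with adjusted p of 0.0199, 0.0305 and 0.00593. With the fibroblast score it called Ccl20 alone (0.85, adjusted p = 0.0433), 1 of 9 against 3.57% of all genes. With the score of mammary epithelium it called 3 of 9 against 8.21%, with Cxcl1 at 0.38, Ccl20 at 0.83 and Lif at 0.40 and adjusted p of 0.0192, 0.0260 and 0.0293. The log2 differences of these 3 genes were thus nearly the same in each fit, and the adjusted p moved across the threshold.

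The genes fell into sets that varied together over the 9 libraries, as measured by Pearson's r of log2 CPM. These values describe libraries that share depth and composition and carry no p. Cxcl2 and Cxcl5 had the highest r, 0.95, followed by Cxcl2 and Lif at 0.88, Ccl7 and Csf1 at 0.85, Cxcl5 and Lif at 0.80 and Cxcl1 and Cxcl2 at 0.79. By rank Cxcl1 was less close to these genes, with a Spearman rho of 0.30 with Cxcl5, 0.55 with Cxcl2 and 0.63 with Lif, against 0.82 with Ccl20. Ccl2 and Ccl7 stood at an r of 0.75. Between the sets r was negative, for example -0.65 for Cxcl5 and Csf1 and -0.63 for Cxcl2 and Ccl7. For Ccl2 it was weak, at -0.11 with Cxcl1, -0.17 with Cxcl5, -0.22 with Cxcl2 and -0.24 with Lif. By rank, Ccl2 had a rho of -0.13 with Cxcl1, 0.05 with Cxcl2, 0 with Cxcl5 and 0 with Lif. Cxcl1 and Ccl20, the pair whose groups did not overlap, had an r of 0.69, which was 0.17 once each group was centred on its own mean.

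**Figure D3:**
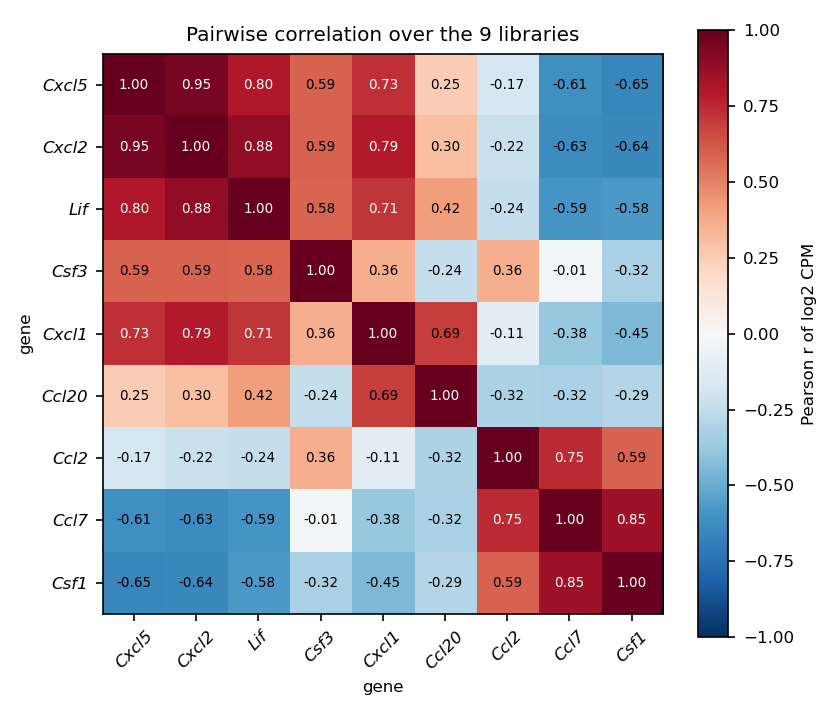
Pearson's r of log2 CPM over the 9 libraries for each pair of the 9 tested genes, as a colour scale with the values written in. Cxcl1, Cxcl2, Cxcl5 and Lif form one block of positive values (up to 0.95) and Ccl2, Ccl7 and Csf1 another (up to 0.85).

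Among 10718 genes with a mean of at least 5 CPM, those most like each member by r over the 9 libraries were listed, again as a description. Cxcl1 was most like Foxp1 (r = 0.99), followed by Smg8 (0.96) and Acod1 (0.95). Cxcl2 was most like Tns4 (0.98), Cxcl5 like Cltb (0.98), Lif like Rab11fip5 (0.98), Csf3 like Man2a2 (0.96) and Ccl20 like Asah1, the lysosomal acid ceramidase (0.99). Ccl7 was most like Rcn3 (0.97), followed by Tns1 (0.97) and the collagen gene Col6a3 (0.96), and Csf1 was most like Hmcn2 (0.97). Ccl2 was most like Sdhaf1 (0.93), followed by Dmwd (0.91) and the acute-phase gene Saa3 (0.88).

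The relation of each gene to the macrophages in a library was measured against the macrophage score, the mean of centred log2 CPM over 16 markers that passed the filter. None of the 16 was called between the groups by edgeR, and 0 had an unadjusted p under 0.05, against 1.41% and 16.7% of all genes. The score was -1.68, -0.40, 0.34 and 1.96 in WT 1 to 4 and -0.44, -0.79, -0.82, 0.75 and 1.07 in E-cad-KO 1 to 5. WT libraries thus took both ends of the scale and the groups overlapped. Relations were computed for 9 genes with each of 3 scores, with exact two-sided permutation tests adjusted over the 9 genes of a score.

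Cxcl2, Cxcl5 and Lif were lower where macrophage markers were higher. Cxcl5 had an r of -0.87 (exact permutation p = 0.00275, adjusted 0.0247) and a Spearman rho of -0.93 (exact permutation p = 0.00075, adjusted 0.00675). Cxcl2 had an r of -0.83 (exact permutation p = 0.00608, adjusted 0.0274) and a rho of -0.87 (exact permutation p = 0.00451, adjusted 0.0203). Lif had an r of -0.76 (exact permutation p = 0.0159, adjusted 0.0476), while its rho of -0.73 missed the threshold after adjustment (exact permutation p = 0.0311, adjusted 0.0934). Within the groups, r of Cxcl5 was -0.97 in the 4 WT and -0.83 in the 5 E-cad-KO libraries, and r of Lif was -0.97 and -0.92; these values over a few libraries are a description and were not tested.

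Csf1 and Ccl7, in contrast, were higher where the score was higher, with r of 0.73 and 0.72, and missed the threshold after adjustment (exact permutation p = 0.0247 and 0.0288, adjusted 0.0518 for both). Their rho values were 0.57 and 0.55 (exact permutation p = 0.121 and 0.133, adjusted 0.199 for both). Within the groups, both had an r of 0.94 among the 4 WT libraries, and among the 5 E-cad-KO libraries r was -0.11 for Csf1 and 0.01 for Ccl7; that difference was not tested. Without E-cad-KO 5, r over the other 8 libraries was 0.89 for Csf1 and 0.81 for Ccl7 (exact permutation, adjusted p = 0.0255 and 0.0321). Csf3 had an r of -0.64 (exact permutation p = 0.0658, adjusted 0.0987; rho -0.62, p = 0.0857, adjusted 0.193). Cxcl1 had an r of -0.47 (exact permutation p = 0.198, adjusted 0.254; rho -0.25, p = 0.521, adjusted 0.669). Ccl2 had an r of 0.17 (exact permutation p = 0.649, adjusted 0.730) and a rho of 0.02 (exact permutation p = 0.982, adjusted 0.982). Ccl20 had an r of -0.0056 (exact permutation p = 0.989, adjusted 0.989) and a rho of 0.03 (exact permutation p = 0.948, adjusted 0.982). Neither had a detectable relation to the score over all 9 libraries. Within the groups, r of Ccl2 was 0.84 in WT and -0.42 in E-cad-KO, and r of Ccl20 was -0.28 and 0.77. These differences were not tested.

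The relations of Cxcl2, Cxcl5 and Lif rested in part on the extreme libraries. For Csf1 and Ccl7, r hardly moved without the 2 most extreme, and the test had fewer libraries. Without WT 4 and E-cad-KO 5, the 2 farthest from the median score, r was -0.69 for Cxcl5, -0.65 for Cxcl2, -0.54 for Lif, 0.73 for Csf1 and 0.71 for Ccl7, and none of these reached p under 0.05 over 7 libraries (exact permutation p = 0.0907, 0.126, 0.204, 0.0665 and 0.0696). No gene passed after adjustment without WT 4, where r was 0.44 for Csf1 and 0.56 for Ccl7. None passed without E-cad-KO 2 either, although r there was still -0.86 for Cxcl5 and -0.82 for Cxcl2. Without E-cad-KO 5, 5 genes passed.

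**Figure D4:**
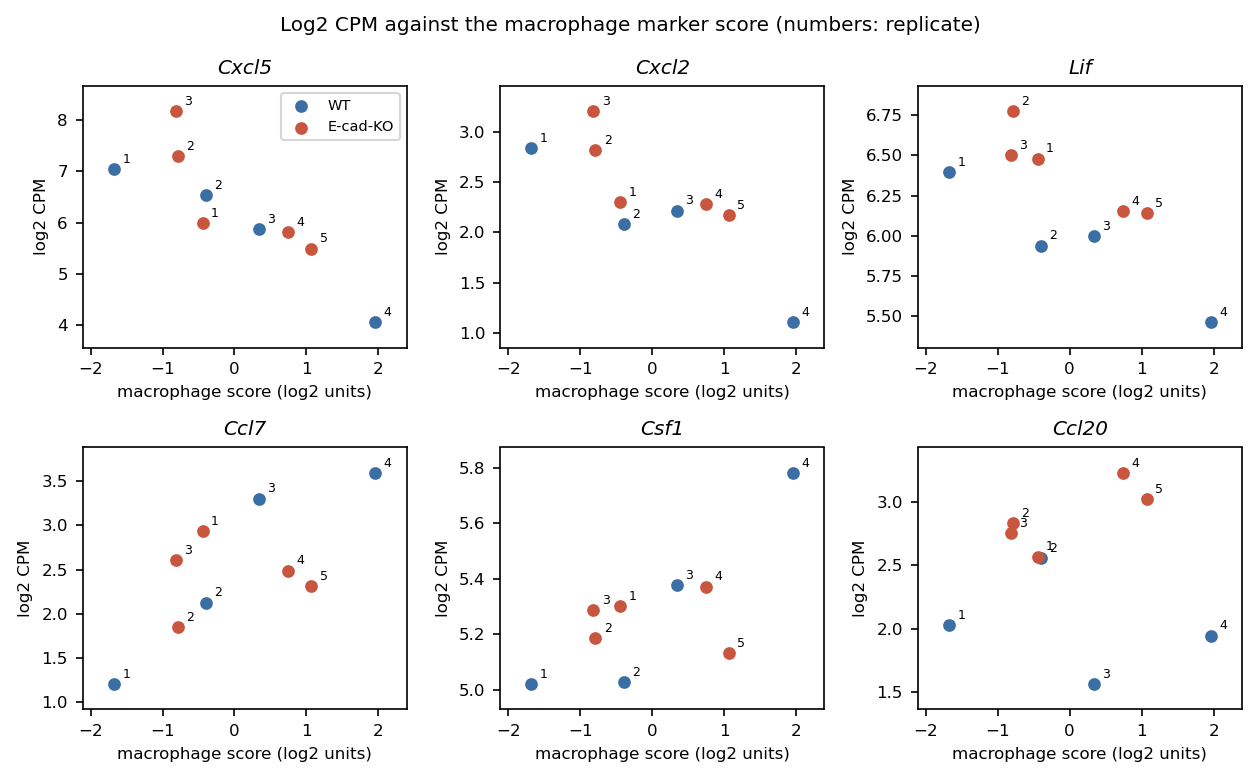
Log2 CPM of 6 tested genes against the macrophage marker score for the 9 libraries, numbered by replicate and coloured by group. Cxcl5 (r = -0.87) and Cxcl2 (-0.83) are lower where the score is higher, Csf1 (0.73) and Ccl7 (0.72) are higher there, and WT 4 sits at the far right (1.96).

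The macrophage score did not vary on its own: over the 9 libraries its r was 0.81 with the fibroblast score and -0.91 with the score of mammary epithelium. Against the fibroblast score, Ccl7 had an r of 0.94 (exact permutation p = 0.00030, adjusted 0.0027; rho 0.88, p = 0.00308, adjusted 0.0277) and kept an r of 0.82 without WT 1 and WT 4 (exact permutation p = 0.0248). Csf1 had an r of 0.81 with it (exact permutation p = 0.0101, adjusted 0.0454; rho 0.78, p = 0.0172, adjusted 0.0775), and 0.62 without those 2 libraries (exact permutation p = 0.141). Against the epithelial score, Cxcl5 had an r of 0.93 (exact permutation p = 0.00065, adjusted 0.00588; rho 0.88, p = 0.00308, adjusted 0.0277), which was 0.84 without WT 4 and E-cad-KO 2 (exact permutation p = 0.0107). Cxcl2 at 0.86, Lif at 0.75, Ccl7 at -0.81 and Csf1 at -0.81 also passed by r with the epithelial score (exact permutation, adjusted p = 0.0201, 0.0367, 0.0201 and 0.0201), and none of these 4 reached p under 0.05 without the 2 libraries (exact permutation p = 0.108, 0.557, 0.0895 and 0.167). Which of the 3 scores a gene followed cannot be told apart for genes that followed all of them.

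The receptors of these factors were mostly scarce. Cxcr1 and Ccr6 had 0 counts in every library, which allows up to 3 counts in each, Ccr2 had 0 to 2 counts and Csf3r 1 to 30. Cxcr2 averaged 0.161 ± 0.0704 CPM over the WT libraries (SD, n = 4) against 0.233 ± 0.100 CPM (SD, n = 5) in E-cad-KO, and Csf2rb at 1.06 ± 1.10 and 0.609 ± 0.326 CPM. The Lif receptor was present: Lifr stood at 34.8 ± 3.64 and 36.5 ± 1.16 CPM. Its partner Il6st, the most abundant receptor per kilobase, measured 97.1 to 127 CPM in WT and 129 to 160 CPM in E-cad-KO with no overlap (log2 difference 0.33, SE 0.09; edgeR adjusted p = 0.100). Of 8 receptors tested 0 were called and 1 had an unadjusted p under 0.05, against 1.41% and 16.7% of all genes.

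Of 23 other chemokines tested, edgeR called 1, against 1.41% of all genes. An unadjusted p under 0.05 was found for 4 of the 23, a share close to the 16.7% of all genes. The median log2 difference was -0.09. The called gene was Cxcl16, a membrane-bound chemokine that is also a scavenger receptor, and the most abundant of the list per kilobase. It measured 138, 128, 95.1 and 110 CPM in WT and 173, 155, 174, 170 and 157 CPM in E-cad-KO, with every E-cad-KO library above every WT library. It rose by 0.49 on the log2 scale (SE 0.10; edgeR adjusted p = 0.0423), and its exons overlap those of Zmynd15 on the other strand. Cx3cl1, the other membrane-bound chemokine, did not overlap either (61.7 to 112 and 119 to 178 CPM; log2 difference 0.61, SE 0.19, edgeR adjusted p = 0.146). Cxcl14 differed by 0.57 (edgeR adjusted p = 0.187) and Ccl28 by -0.69 (0.280), with overlap in both.

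Other cytokines of the myeloid and interleukin-6 families had a positive log2 difference in 7 of 8 tested, with a median of 0.41. Of the 8, 0 were called and 2 had an unadjusted p under 0.05, against 1.41% and 16.7% of all genes. Il34, the other ligand of the Csf1 receptor, averaged 6.36 ± 1.03 CPM over the WT libraries (SD, n = 4) against 8.55 ± 0.749 CPM (SD, n = 5) in E-cad-KO, without overlap (log2 difference 0.43, SE 0.13; edgeR adjusted p = 0.121). Clcf1 and Il11, which like Lif signal through Il6st, differed by 0.44 and 0.40 (edgeR adjusted p = 0.223 and 0.410), and Kitl, the most abundant per kilobase, by 0.10 (0.840). Among 3 atypical chemokine receptors tested, which bind their ligands without signalling like the others, 0 were called, against 1.41% of all genes. Ackr4 stood at 1.20 ± 0.681 and 0.527 ± 0.0817 CPM (log2 difference -1.19, SE 0.35, edgeR adjusted p = 0.118). Ackr3 differed by -0.23 and Ccrl2 by 0.09.

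The subunits and feedback genes of NF-kB all had positive log2 differences, 14 of 14, with a median of 0.25. Of these, 2 were called higher by edgeR and 9 had an unadjusted p under 0.05, against the 1.41% and 16.7% of all genes given above. The list was chosen with earlier results of these data known, so these counts are a description. Nfkbie, an inhibitor that holds NF-kB in the cytoplasm and is itself induced by it, measured 11.6, 13.6, 11.4 and 10.1 CPM in WT and 18.4, 19.4, 21.2, 20.3 and 18.7 CPM in E-cad-KO. The groups lay well apart, and Nfkbie rose by 0.75 on the log2 scale (SE 0.09; edgeR adjusted p = 0.0110). Nfkb2, the subunit of the non-canonical pathway, rose by 0.47 (SE 0.07; edgeR adjusted p = 0.0182), from 31.2 to 32.7 CPM over the WT libraries to 39.4 to 48.8 CPM over E-cad-KO; its exons overlap those of Psd on the other strand. Nfkb1, Relb and Nfkbiz differed by 0.33, 0.42 and 0.20 (edgeR adjusted p = 0.0697, 0.136 and 0.104), and Nfkbia, the most abundant per kilobase, by 0.19 (0.716).

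**Figure D5:**
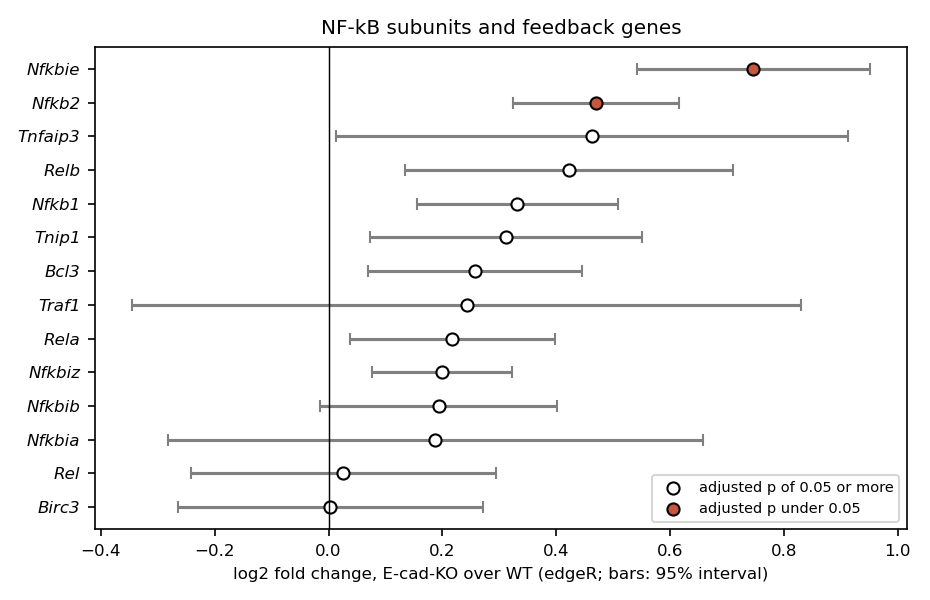
Log2 difference of E-cad-KO from WT for the 14 NF-kB genes by edgeR, with bars for the 95% interval and filled points for an adjusted p under 0.05. Nfkbie (0.75) and Nfkb2 (0.47) are filled, and all 14 points lie above 0, Birc3 and Rel closest to it.

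Cytokines that are known to induce these genes gave 1 positive and 5 negative log2 differences among 6 tested. Of the 6, 0 were called and 1 had an unadjusted p under 0.05, against 1.41% and 16.7% of all genes. Il33, an alarmin released by damaged epithelium, averaged 13.4 ± 3.37 CPM over the WT libraries (SD, n = 4) against 5.81 ± 2.39 CPM (SD, n = 5) in E-cad-KO, a log2 difference of -1.20 (SE 0.29; edgeR adjusted p = 0.0760). Tnf, the most abundant per kilobase, stood at 15.7 ± 6.25 and 15.1 ± 2.79 CPM (log2 difference -0.06), Il36g differed by -0.38 and Tnfsf11 by 1.18, at 3 to 44 counts (edgeR adjusted p = 0.947, 0.858 and 0.431). Proteins that bind inflammatory mRNAs and govern their decay gave 0 calls among 7 and 1 unadjusted p under 0.05, against the same shares of all genes. Elavl1 differed by 0.16, Rc3h1 by 0.15, Zfp36l2 by 0.30 and Zfp36l1 by 0.16 (edgeR adjusted p = 0.154, 0.309, 0.422 and 0.762).

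Genes that STAT factors induce downstream of Lif and the colony-stimulating factors gave 0 calls among 8 tested by edgeR, against 1.41% of all genes. Of the 8, whose median log2 difference was 0.19, 3 had an unadjusted p under 0.05, against 16.7% of all genes. These 3, Bcl6 at 0.20, Socs1 at 0.51 and Junb at 0.48 (edgeR adjusted p = 0.127, 0.155 and 0.194), were also the 3 whose groups did not overlap, against 8.11% of all genes. Of the neutrophil markers, 3 of 8 were tested and 0 called, against 1.41% of all genes. S100a8, which keratinocytes and tumour epithelium can also make, averaged 104 ± 62.2 CPM over the WT libraries (SD, n = 4) against 39.4 ± 7.86 CPM (SD, n = 5) in E-cad-KO, with a log2 difference of -1.40 (SE 0.40; edgeR adjusted p = 0.123). Among markers of mammary epithelium 0 of 10 were called, against 1.41% of all genes. However, 6 had an unadjusted p under 0.05, against 16.7% of all genes. The groups did not overlap for 2 of the 10, against 8.11% of all genes. Of their log2 differences 6 were positive and 4 negative. With the epithelial score as covariate, Cxcl1, Ccl20 and Lif kept the log2 differences given above. The score averages markers that differed in both directions, such as Krt8 by 0.39 and Elf5 by -0.38, so it does not measure epithelial content alone. Whether the 3 genes depend on that content was not tested. Exons of Il34, Ackr4, Elavl1, Zfp36l1, Zfp36l2, Bcl6 and Junb overlap a gene on the other strand, and those of Clcf1 and Csf2rb one on the same strand.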

How the data were processed

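RNA was sequenced from 9 organoid samples, 4 WT and 5 E-cad-KO, grouped by the labels. The authors deposited raw counts per gene, not normalised; Bowtie2, TopHat2, HTSeq and GRCm38 are named per the submitters' processing notes. Their versions, the annotation release and the strand setting are not given in the sources used. Per the labels' protocols, libraries were stranded and selected for mRNA. Library totals of 44890302 to 64763645 counts limit the precision of rare genes such as Csf2; floors cover counting error only.

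Symbols matched 51633 of 51912 identifiers; lengths, positions and exon overlaps came from GENCODE M21. The test was edgeR 4.0.16 (R 4.3.3) quasi-likelihood with TMM, filterByExpr, robust dispersions and group as the only term, two-sided, with Benjamini-Hochberg adjustment over 17289 genes. CPM used TMM-scaled totals. Log2 CPM used a prior count of 2. A marker score is the mean of centred log2 CPM over tested markers. Alternatives were DESeq2 1.42.0, limma-voom (limma 3.58.1), other size factors and filters, non-robust dispersions, the replicate number as a block, the macrophage score as covariate, other versions of the score and each library left out. Chosen after seeing the data were the fibroblast and epithelial covariates, WT 1 and WT 4 both left out, and the score without Cd14. Routines were tested on simulated data.

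All members were named; from each other list, the called genes, up to 3 uncalled genes with the smallest p and the most abundant gene per kilobase. A few receptors and markers (Lifr, Ccr2, Csf3r, S100a8) were added after their values were seen. The members and lists were chosen with earlier results of these data known.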

Additional observations from a re-analysis of the deposited data

Results flagged for a closer look

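Values that stood apart from the rest of their group were sought among 41 genes in 82 groups, where chance gives about 1 in 20 groups, and 5 were found. Cxcl1 was highest in E-cad-KO 3 at 126.4 CPM, with the other E-cad-KO libraries between 91.3 and 96.7 CPM. Clcf1 was lowest in the same library at 30.8 CPM, against 36.2 to 36.9 CPM. Cx3cl1 was highest in E-cad-KO 2 at 178 CPM, against 119 to 131 CPM, and so was Cxcr2 at 0.406 CPM, against 0.158 to 0.226 CPM. Junb was lowest in WT 4 at 72.7 CPM, against 124 to 128 CPM in the other WT libraries. Without E-cad-KO 3 the log2 difference of Cxcl1 was 0.31 (edgeR adjusted p = 0.179).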

How the results depend on the processing

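The number of members called was 0 in the edgeR fit and 0 in 17 of 21 alternatives. It was 2 with DESeq2, 3 with the macrophage score as covariate, 1 with the fibroblast score and 3 with the epithelial score. Cxcl1, Cxcl2, Cxcl5, Ccl20 and Lif kept a positive log2 difference in all 21 alternatives, from 0.70 to 1.05 for Ccl20, 0.31 to 0.47 for Cxcl1 and 0.30 to 0.62 for Lif, with adjusted p from 0.00206 to 0.245, 0.0192 to 0.256 and 0.00593 to 0.490. The sign changed for 4 genes, none of them called, and the cause was not tested. Ccl2 was 0.059 with the replicate block and 0.0081 with the epithelial score, and ran from -0.11 to 0.071 with each library left out. Csf1 was 0.017 with limma-voom, 0.0032 with the epithelial score and 0.049 without WT 1 and WT 4, and ran from -0.17 to 0.11 with each library left out. Csf3 was -0.049 with limma-voom and -0.10 without WT 1 and WT 4, and ran from -0.032 to 0.39 with each left out. Ccl7 ran from -0.65 to 0.016. The number of members correlated with the macrophage score, 3, was 1 with the score of 3 genes and 5 with a prior count of 0.5, and ran from 0 to 5 with each library left out. The r of Ccl20 was 0.035 and 0.0051 in those settings and ran from -0.24 to 0.35, and that of Ccl2 ran from -0.056 to 0.50. Same-numbered libraries of the 2 groups had r of -0.55, 0.36, -0.14 and 0.28. These mixed values show no steady pairing by replicate number, but they were not tested and cannot exclude one. The replicate block gave 0 members called.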
